A study of Caenorhabditis elegans with 6 samples.

Results

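A set of 10 genes of the methionine cycle and of phosphatidylcholine methylation was followed in whole-body RNA of *Caenorhabditis elegans* hermaphrodites at the L4 larval stage. They are *sams-1*, *sams-3*, *sams-4*, *sams-5*, *metr-1*, *mtrr-1*, *mthf-1*, *ahcy-1*, *pmt-1* and *pmt-2*, chosen by symbol. All 10 were found among the 21507 genes of the deposited table, and all 10 were among the 15169 genes tested, those with a mean of at least 10 normalized counts over the 6 libraries. The libraries came from 3 untreated samples labelled as a glna knockout and 3 untreated samples of wild type (N2). The glna genes encode glutaminases, which release glutamate and ammonia from glutamine. The labels do not say which of them were deleted, with which alleles, or in how many clones.

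The methionine cycle makes and recycles the methyl donor of the cell. S-adenosylmethionine synthetases (the *sams* genes) join methionine to ATP, methyltransferases hand on the methyl group, *ahcy-1* splits the S-adenosylhomocysteine that is left, and the vitamin B12-dependent methionine synthase *metr-1* turns homocysteine back into methionine. *mthf-1* supplies *metr-1* with methylated folate, and *mtrr-1* restores its B12 cofactor. In the worm a large consumer of these methyl groups is the synthesis of phosphocholine for phosphatidylcholine, in which *pmt-1* adds the first methyl group to phosphoethanolamine and *pmt-2* adds the later ones. Worms short of *sams-1* are known for low phosphatidylcholine and raised fat stores.

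Depth was even, at 18443661 to 19861540 reads assigned to genes per library. Of the glutaminase genes, *glna-2* had 37.4, 66.0 and 69.5 normalized counts in the knockout libraries, against 519.2, 408 and 448 in wild type. *glna-3* had 83.1, 175 and 116 in the knockout, against 761, 670.4 and 636 in wild type, and *glna-1* had 187, 128 and 152 in the knockout, against 268, 255 and 269.8 in wild type. For all 3 genes the knockout libraries lay below the wild-type ones without overlap, and reads remained at each (limma adjusted p = 0.0222 for *glna-2*, 0.0291 for *glna-3* and 0.0762 for *glna-1*). Knockout replicate 1 stood apart: 13.7% of all its reads fell on its 10 top genes, while that share was 6.60% and 6.12% in knockout replicates 2 and 3 and 5.21% to 5.44% in wild type. The labels do not state that replicates came from different cultures, and the p-values therefore rest on a spread between samples that could be technical in origin.

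No gene of the 10 passed the test over all genes, and the knockout values were mostly the higher ones. The model was limma on log2(normalized count + 1), with Benjamini-Hochberg adjustment over all 15169 genes and a threshold of 0.05. It called 0 of the 10, against 0.356% of all genes tested (0.211% upward), and edgeR on reads recovered from the table also called 0 under both of its scalings. DESeq2 on those reads called 1, *sams-1*, as did the authors' deposited table, in which 8.14% of the tested genes passed in either direction and 4.01% upward. With no adjustment, 2 of the 10 had a limma p under 0.05, *sams-1* and *pmt-1*, both higher in the knockout, against 22.6% of all genes in either direction and 10.9% upward. The median log2 fold change over the 10 genes was 0.29, against 0.01 over all genes tested, and 10 of 10 were above 0, against 51.2% of all genes. For *sams-4* and *ahcy-1* the value was 0.00 to 2 decimals and its sign turned with the scaling, to -0.04 for *sams-4* and -0.11 for *ahcy-1* after quantile normalization. Without wild type replicate 2 the median over the 10 genes was 0.10, against 0.02 over all genes tested, and 6 of 10 were above 0. That library was the lowest of the wild type for 10 of 10, so leaving it out had to lower each value.

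**Figure D1:**
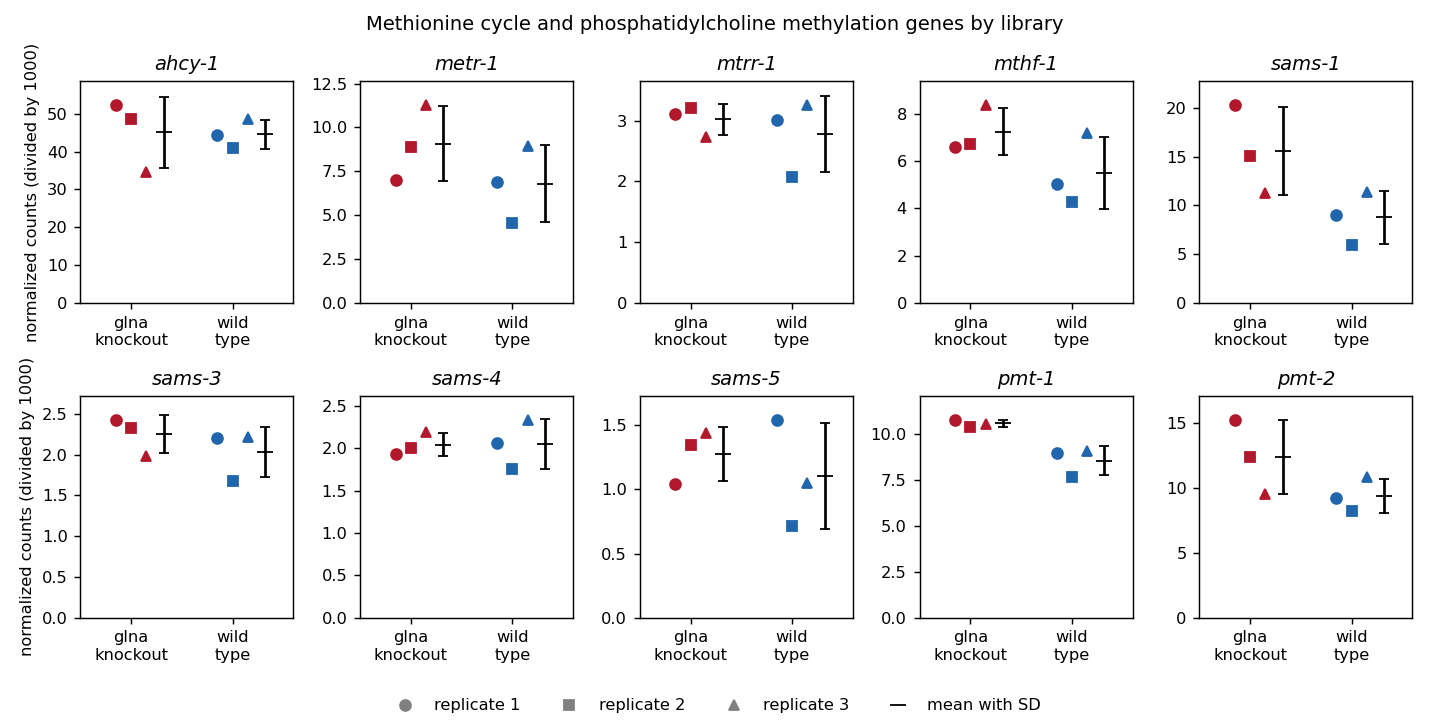
Normalized counts divided by 1000 (vertical axis) of the 10 genes in each library, with knockout libraries in red on the left of each panel and wild type in blue on the right. Symbols mark the replicate number, and the black bar is the mean with its SD (n = 3). Groups are apart for *pmt-1*, and in every panel the blue square, wild type replicate 2, is the lowest wild-type point.

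Of the 4 S-adenosylmethionine synthetase genes, *sams-1* was the most abundant and had the largest difference. *sams-1* (C49F5.1, chromosome X, 11965962 to 11968109, plus strand, WBcel235) is the synthetase gene whose loss lowers phosphatidylcholine in the worm. It had 20310.1, 15032 and 11312 normalized counts in the knockout libraries, against 8976, 5971 and 11341 in wild type. Knockout replicates 1 and 2 lay above all of wild type, while knockout replicate 3 lay just under wild type replicate 3, so the groups touched. The means were 15551 ± 4521 in the knockout and 8762 ± 2691 in wild type (SD, n = 3 each), a log2 fold change of 0.84 (SE 0.27, 95% confidence interval 0.21 to 1.46, limma adjusted p = 0.14). Its adjusted p was 0.0373 in the authors' deposited table, with a log2 fold change of 0.83. DESeq2 on the recovered reads, which gave the same adjusted p, kept the call without knockout replicate 3 (log2 fold change 1.01, adjusted p = 0.00942) or wild type replicate 3 (1.05, 0.0183). The call was lost, at a like log2 fold change, without knockout replicate 2 (0.85, adjusted p = 0.0649) or wild type replicate 1 (0.84, 0.121). It was also lost, at a lower log2 fold change, without knockout replicate 1 (0.58, adjusted p = 0.227) or wild type replicate 2 (0.61, 0.278).

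The other synthetase genes differed by less than the spread between replicates. *sams-3* (C06E7.1, chromosome IV, 5848655 to 5849683, plus strand) averaged 2249 ± 231 normalized counts in the knockout and 2030.2 ± 306 in wild type. *sams-4* (C06E7.3, chromosome IV, 5843982 to 5846369, minus strand) averaged 2045 ± 132 in the knockout and 2051 ± 293 in wild type. *sams-5* (T13A10.11, chromosome IV, 6277435 to 6279521, minus strand) averaged 1276 ± 211 in the knockout and 1104 ± 416 in wild type (SD, n = 3 each). For each of these genes the values of the knockout libraries lay among those of wild type or overlapped them. Relative to its mean, the widest spread of any of the 10 genes within a genotype was that of *sams-5* in wild type, with 1545, 719 and 1049 normalized counts. The log2 fold changes were 0.15 for *sams-3* (95% confidence interval -0.18 to 0.49), 0.00 for *sams-4* (-0.30 to 0.31) and 0.26 for *sams-5* (-0.34 to 0.87), with limma adjusted p from 0.553 to 0.991. Without wild type replicate 2 the log2 fold change of *sams-3* was 0.02, and its range over the limma fits without 1 library was 0.02 to 0.24. *sams-3* and *sams-4* are divergent neighbours, with 2287 bases between their annotated starts in Ensembl release 115. The 4 genes are paralogs that may share reads, and their sequences were not compared here. Exons of *sams-3* also overlap a gene on the opposite strand, C06E7.4, so its values are uncertain to that extent.

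Per length, *sams-1* made up most of the synthetase level in every library, with its highest shares in knockout replicates 1 and 2. Divided by the deposited gene lengths, its share of the level of the 4 genes was 76.6%, 69.5% and 63.2% in knockout replicates 1, 2 and 3, against 56.8%, 55.8% and 63.9% in wild type replicates 1, 2 and 3. The share in knockout replicate 3 lay between those of the wild-type libraries. The summed level of the 4 genes was 12363, 10093 and 8346 normalized counts per kilobase in the knockout, against 7366, 4993 and 8282 in wild type. Every knockout sum was above every wild-type sum, by a narrow margin in knockout replicate 3. Of the 4 genes only *sams-5* was higher in knockout replicate 3 than in wild type replicate 3, at 1442 against 1049 normalized counts. *sams-1*, *sams-3* and *sams-4* were lower there. No test was made of this sum or of the shares.

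**Figure D2:**
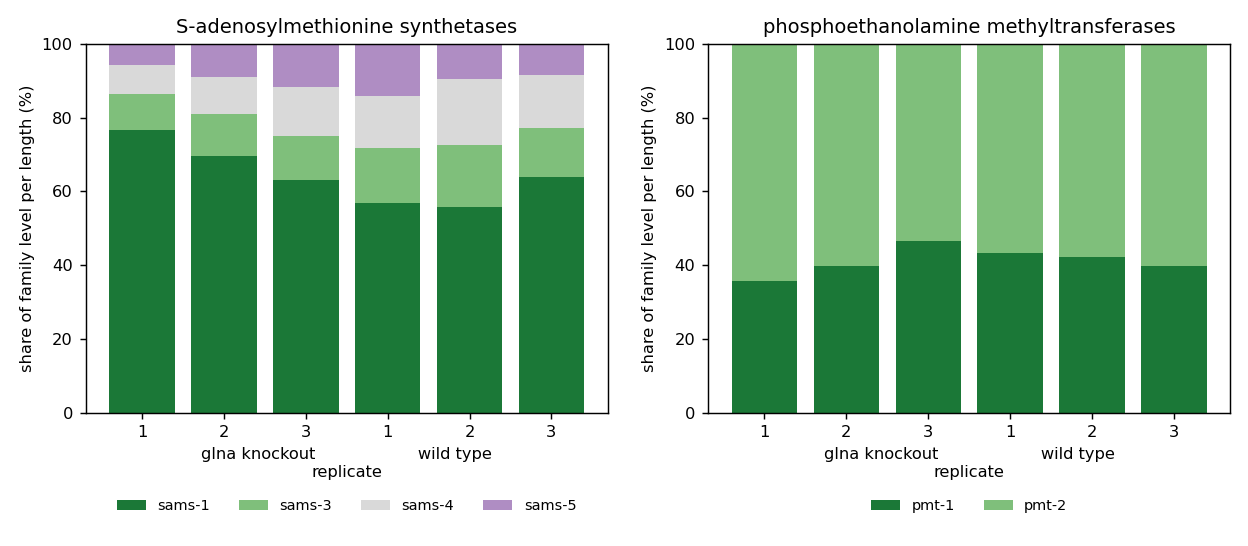
Share of the level per length, in percent, taken by each S-adenosylmethionine synthetase gene (left) and by *pmt-1* and *pmt-2* (right) in each library, knockout libraries first. *sams-1* took 63.2% to 76.6% of the synthetase level in the knockout and 55.8% to 63.9% in wild type.

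The genes that regenerate methionine, *metr-1* and *mthf-1*, were nearly parallel across libraries. *metr-1* (R03D7.1, chromosome II, 10926561 to 10931077, plus strand), the methionine synthase, had 7023, 8868 and 11292 normalized counts in the knockout, against 6904, 4547 and 8959 in wild type. *mthf-1* (C06A8.1, chromosome II, 7773880 to 7777823, minus strand), the methylenetetrahydrofolate reductase, had 6612, 6747 and 8391 in the knockout, against 5027, 4258 and 7207 in wild type. For both, knockout replicate 3 was the highest of the 6 libraries and wild type replicate 2 the lowest, and wild type replicate 3 lay among the knockout values. The log2 fold change was 0.44 for *metr-1* (SE 0.26, 95% confidence interval -0.16 to 1.04, limma adjusted p = 0.34) and 0.43 for *mthf-1* (SE 0.20, -0.03 to 0.88, limma adjusted p = 0.246). Exons of *mthf-1* overlap C06A8.6 on the opposite strand, and reads of the pair could not be told apart. DESeq2 on the recovered reads called *mthf-1* only in the fit without wild type replicate 3 (log2 fold change 0.64, DESeq2 adjusted p = 0.0446).

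*mtrr-1* (C01G6.6, chromosome II, 9285932 to 9289136, plus strand), which encodes the reductase that reactivates methionine synthase, differed less. It averaged 3022 ± 250 normalized counts in the knockout and 2783 ± 623 in wild type (SD, n = 3 each). The groups overlapped, with 2739 to 3213 in the knockout and 2078 to 3261 in wild type, and the log2 fold change was 0.14 (95% confidence interval -0.26 to 0.55, limma adjusted p = 0.654).

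*ahcy-1*, the S-adenosylhomocysteine hydrolase that removes the inhibitory by-product of methylation, had nearly equal means in both genotypes and the highest level of the 10 genes. *ahcy-1* (K02F2.2, chromosome I, 6836390 to 6838142, plus strand) had 52404, 48622 and 34576 normalized counts in the knockout, against 44291, 40912 and 48533 in wild type. The knockout libraries lay on both sides of wild type, with knockout replicate 3 the lowest of the 6. The log2 fold change was 0.00 (SE 0.18, 95% confidence interval -0.42 to 0.42, limma adjusted p = 0.998). With 3 libraries per genotype, that interval leaves room for a change of either sign.

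Of the phosphoethanolamine methyltransferase genes, only *pmt-1* had groups that did not overlap. *pmt-1* (ZK622.3, chromosome II, 5278137 to 5280455, minus strand) had 10766, 10386 and 10548 normalized counts in the knockout, against 8968.5, 7625 and 9038 in wild type. It was the only one of the 10 genes whose groups did not overlap, against 30.5% of all genes tested in either direction and 15.3% upward. Its knockout values were close together, with an SD of 1.8% of the mean, against 9.32% in wild type. The log2 fold change was 0.31 (SE 0.12, 95% confidence interval 0.04 to 0.58, limma adjusted p = 0.172), and the authors' deposited table gives an adjusted p of 0.137. It stayed between 0.23 and 0.35 in the 6 limma fits that left out a library, and none of them called it.

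*pmt-2* (F54D11.1, chromosome V, 4628580 to 4635266, plus strand) varied more between knockout libraries than *pmt-1* did. It had 15275, 12384 and 9513 normalized counts in the knockout, against 9205, 8229.7 and 10818 in wild type. Knockout replicate 1 was the highest and knockout replicate 3 lay within wild type. The log2 fold change was 0.38 (SE 0.19, 95% confidence interval -0.06 to 0.81, limma adjusted p = 0.271), and leaving out knockout replicate 1 gave 0.21, leaving out knockout replicate 3 gave 0.56. Per length, *pmt-2* took 64.3%, 60.2% and 53.4% of the summed level of *pmt-1* and *pmt-2* in knockout replicates 1, 2 and 3, against 56.6%, 57.8% and 60.3% in wild type replicates 1, 2 and 3.

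**Figure D3:**
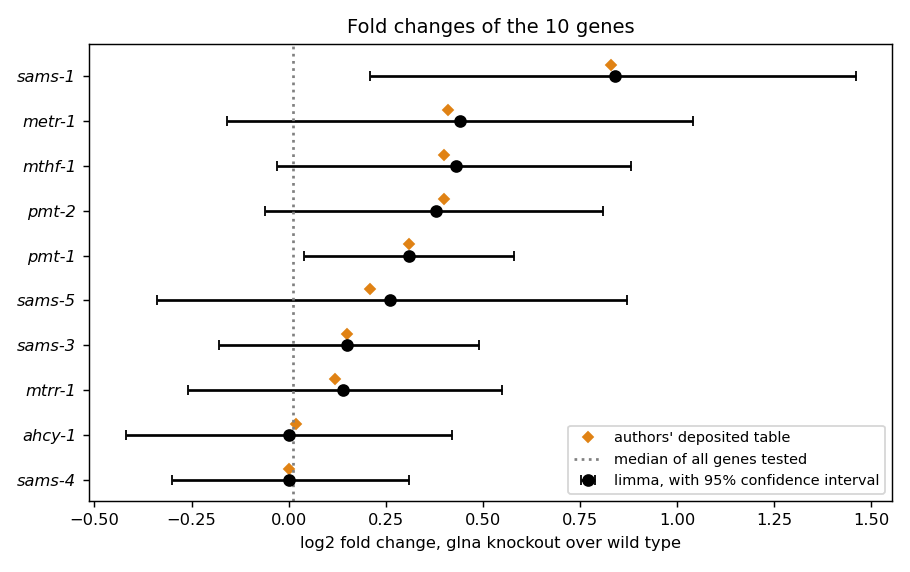
Log2 fold change of the glna knockout over wild type (horizontal axis) for each of the 10 genes. Black points are limma estimates with their 95% confidence intervals, orange diamonds are the authors' deposited values, and the dotted line is the median of all genes tested, 0.01. The intervals of *sams-1* (0.21 to 1.46) and *pmt-1* (0.04 to 0.58) lie above 0, and the other 8 include it.

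Levels per kilobase of the deposited gene length put the 10 genes in nearly the same order in both genotypes. *ahcy-1* led with 27953 ± 5809 normalized counts per kilobase in the knockout and 27569 ± 2361 in wild type, more than 99% of tested genes lying below it. Next in the knockout came *pmt-2* (7857 ± 1827), *sams-1* (7253 ± 2109) and *pmt-1* (5281 ± 95.3), and next in wild type *pmt-2* (5972 ± 829), *pmt-1* (4269.8 ± 398) and *sams-1* (4087 ± 1255). *sams-1* thus stood above *pmt-1* by mean in the knockout and below it in wild type, and the ranges of the pair overlapped in both genotypes. *mthf-1*, *metr-1* and *mtrr-1* followed in that order in both genotypes, at 2910.5, 2296 and 1363 per kilobase in the knockout and 2207, 1724 and 1255 in wild type. *sams-3*, *sams-4* and *sams-5* were the lowest, at 1122, 1038 and 854 in the knockout and 1013, 1042 and 739 in wild type. In wild type only *ahcy-1* and *pmt-2* had ranges clear of the next gene down. With exon lengths from Ensembl the order by mean was the same, and *sams-1* was clear of *mthf-1* too.

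Across libraries the 10 genes shared a low point in wild type, seen after the values were known. Wild type replicate 2 was the lowest wild-type library for 10 of 10, against 34.9% of all genes tested, and the lowest of all 6 libraries for 9 of 10, against 21.3%. The exception was *ahcy-1*, lowest in knockout replicate 3. Wild type replicate 3 was the highest wild-type library for 9 of 10, all but *sams-5*, against 28.9% of all genes. Relative to the wild-type mean, the median of the 10 genes on the log2 scale was 0.26, 0.31 and 0.21 in knockout replicates 1, 2 and 3, against 0.08, -0.30 and 0.21 in wild type replicates 1, 2 and 3. Between the genotypes, the median in wild type replicate 3 equalled that in knockout replicate 3, and wild type replicate 2 was the lowest. Without that library the limma log2 fold change was 0.58 for *sams-1* (adjusted p = 0.38), 0.18 for *metr-1* (0.744) and 0.26 for *mthf-1* (0.579). In that fit 0 of the 10 had an unadjusted p under 0.05, against 13.3% of all genes tested. Leaving out the lowest wild-type library had to lower these fold changes.

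Within the knockout the genes fell into opposite orders. *sams-1*, *pmt-2*, *ahcy-1* and *sams-3* were highest in knockout replicate 1 and lowest in knockout replicate 3, an order shown by 19.8% of all genes tested. *metr-1*, *mthf-1*, *sams-5* and *sams-4* were highest in knockout replicate 3 and lowest in knockout replicate 1, the order of 17.1% of all genes. Knockout replicate 3 was thus the lowest knockout library for 5 genes, *mtrr-1* being the fifth, and the highest for 4, against 30.7% and 29.1% of all genes. *sams-1* was 1.26, 0.83 and 0.42 above the wild-type mean on the log2 scale in knockout replicates 1, 2 and 3, while *metr-1* was 0.10, 0.44 and 0.79 above it. As a description over the 6 libraries, Pearson's r of log2 values was 0.96 between *sams-1* and *pmt-2*, 0.94 between *metr-1* and *mthf-1* and 0.53 between *sams-1* and *metr-1*. High values were not confined to genes of the same order, with 0.95 between *sams-3* and *mtrr-1* and 0.81 between *pmt-1* and *mthf-1*. *mtrr-1* had 0.66 with *metr-1*, and the lowest value of any pair was -0.18, between *metr-1* and *ahcy-1*. These pairs share the same 6 libraries and their genotype difference.

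Yolk genes had the order of *sams-1* within the knockout, and oocyte genes were likewise highest in knockout replicate 1. The 6 vitellogenin genes, which encode yolk proteins made in the intestine, had medians of 2.61, 0.78 and 0.17 above the wild-type mean on the log2 scale in knockout replicates 1, 2 and 3, against 0.18, -0.02 and -0.14 in wild type replicates 1, 2 and 3. They summed to 437383 to 1663028 normalized counts in the knockout and 266665 to 365772 in wild type. The 10 oocyte markers had 1.90, 0.54 and 0.67 in the knockout, against 0.49, -0.32 and -0.15 in wild type. Their summed level was 27129.8 to 65194 normalized counts in the knockout and 15912 to 24728 in wild type, and none was at 0. Of the 7 measured intestinal markers the actin gene *act-5* was the most abundant. They summed to 51724 to 63227 normalized counts in the knockout and 55031 to 59921 in wild type. Of the 7, limma called 0, against 0.356% of all genes tested, and 0 passed in the authors' deposited table, against 8.14%. At an unadjusted p under 0.05 there were 0, against 22.6% of all genes in either direction. Groups did not overlap in 1, lower in the knockout, against 30.5% of all genes in either direction. The part of germline composition and of knockout replicate 1 in the levels of *sams-1* and *pmt-2* was not tested. In RNA of whole animals, fewer cells of a type and less RNA per cell cannot be told apart.

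**Figure D4:**
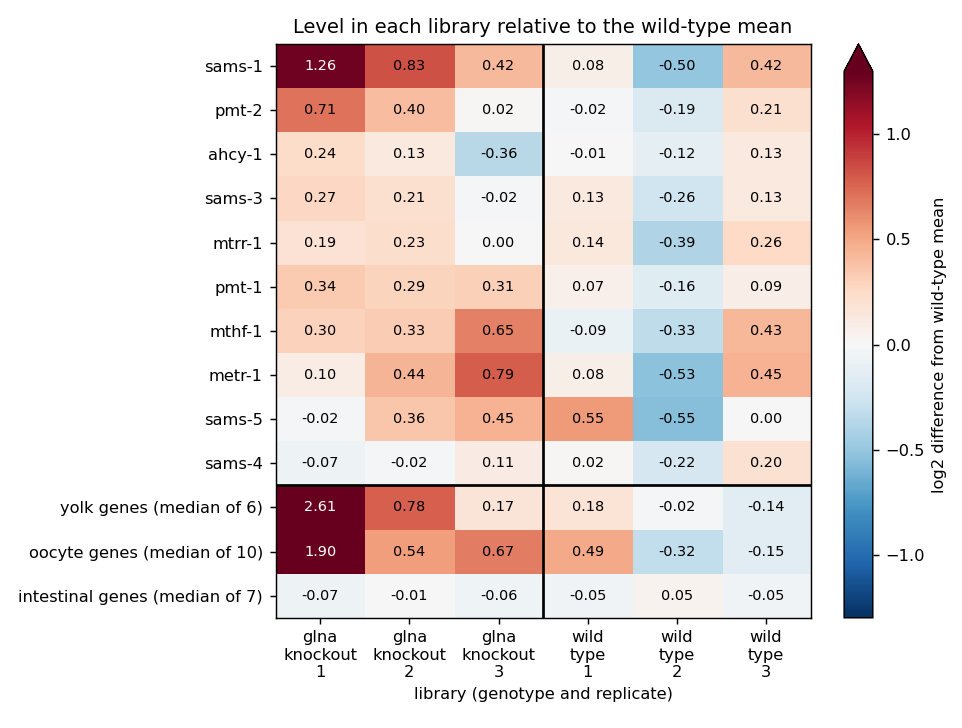
Level in each library as the log2 difference from the wild-type mean (colour and printed values), for the 10 genes above the line and for the medians of yolk, oocyte and intestinal genes below it, with knockout libraries left of wild type. Wild type replicate 2 is below 0 in all 10 genes, and *sams-1* and *pmt-2* are highest in knockout replicate 1 and lowest in knockout replicate 3 within the knockout, as the yolk median is.

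The other marker lists were read as well, and whether their levels reflect the tissue makeup of the samples was not tested. Of 8 sperm markers 0 had a log2 fold change above 0, against 51.2% of all genes, with a median of -0.46. Their summed levels were 14263 to 17681 in the knockout and 17650.3 to 23623 in wild type. The 8 germline markers had a median log2 fold change of 0.16 and the 8 epidermal ones -0.37. The 8 body wall muscle markers had 0.06 and the 8 neuronal ones 0.14. Limma called 0 markers in any list, against 0.356% of all genes tested. In the authors' deposited table, where 8.14% of all genes passed, the oocyte markers *egg-1*, *chs-1* and *perm-4* were higher, as were the germline marker *gld-1* and the epidermal marker *elt-3*. The sperm markers *fer-1* and *ssp-16* and the epidermal marker *dpy-13* were lower there, and 0 yolk, muscle and neuronal markers passed. Without adjustment, limma p was under 0.05 for 9 of 10 oocyte and 3 of 6 yolk markers, all higher, against 10.9% of all genes upward. The same held for 3 of 8 sperm markers, all lower, against 22.6% of all genes in either direction, a share that includes the 10.9% upward. Of the germline markers 1 was higher and 0 lower. Of the epidermal and of the muscle markers 1 each was higher and 1 each lower, and of the neuronal ones 0 passed.

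The genes most like *sams-1* over the 6 libraries, among 7503 others that have a symbol and average 50 or more, were *zip-3* (Pearson's r = 0.996), *nhr-114* (0.986), *prx-10* (0.984), *hacd-1* (0.981) and *pbo-5* (0.980). *nhr-114* encodes a nuclear hormone receptor known in the worm to activate methionine cycle genes. It had 3156, 2769 and 1950 normalized counts in the knockout, against 1711, 1193 and 1853 in wild type. All 3 knockout values were above wild type, knockout replicate 3 by little. The log2 fold change was 0.72 (SE 0.22, limma adjusted p = 0.125), and the authors' deposited table gives an adjusted p of 0.0329. *hacd-1*, of the hydroxyacyl-CoA dehydrogenases, had 2675, 2487 and 1833 in the knockout, against 1385, 1047 and 1678 in wild type. *zip-3*, a bZIP transcription factor gene, differed less, with 1116 to 1411 in the knockout and 922 to 1144 in wild type.

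The genes most like *pmt-2* were *serr-1* (r = 0.994), *nhr-57* (0.990), *mbr-1* (0.984), *pod-2* (0.980) and *twk-1* (0.975). *pod-2*, acetyl-CoA carboxylase, makes the building block of fatty acid synthesis and was by far the most abundant of them, with 21790.2, 16688 and 11367 normalized counts in the knockout, against 10763, 8066 and 11642 in wild type. Like *sams-1*, it was highest in knockout replicate 1 and had knockout replicate 3 just under wild type replicate 3. Its log2 fold change was 0.68 (SE 0.24, limma adjusted p = 0.161), and the authors' deposited table gives an adjusted p of 0.0539. With 6 libraries and 7503 genes searched, these correlations are a description only.

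A further 6 lists of neighbouring pathways were read beside the 10 genes. Limma called 0 genes in each, against 0.356% of all genes tested. The list of vitamin B12 handling and propionate breakdown includes genes that share the B12 supply with *metr-1* and genes of the propionate shunt. Of 16 measured genes, 14 had a log2 fold change above 0, against 51.2% of all genes, with a median of 0.23. At an unadjusted p under 0.05, 5 were higher and 0 lower, against 10.9% of all genes upward. The authors' deposited table has 2 higher, *nhr-114* and *alh-8*, against 4.01% of all genes. *alh-8*, an aldehyde dehydrogenase of the propionate shunt that works where B12 is short, had 42502, 31388.5 and 30501 normalized counts in the knockout, against 21238.5, 18262 and 24042 in wild type. Its groups did not overlap (log2 fold change 0.71, SE 0.17, limma adjusted p = 0.0844, with 0.00525 from the authors' deposited table). *acdh-1*, the acyl-CoA dehydrogenase at the head of that shunt and the most abundant member, averaged 46676 ± 3060.0 in the knockout and 36149 ± 13039 in wild type (SD, n = 3 each), with overlapping groups and wild type replicate 2 lowest, at 23395.

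The choline and ethanolamine route leads to phosphatidylcholine around and after the *pmt* step. Of 14 genes tested, 11 had a log2 fold change above 0, against 51.2% of all genes, with a median of 0.21. At an unadjusted p under 0.05, 6 were higher and 1 lower, against 22.6% of all genes in either direction and 10.9% upward. Groups did not overlap in 8 of the 14 (7 higher, 1 lower), against 30.5% of all genes in either direction and 15.3% upward. In the authors' deposited table, where 8.14% of all genes passed in either direction, *cka-1* and *cept-1* were higher and *ckb-2* lower. *cka-1*, a choline kinase gene, averaged 1549.9 ± 214 normalized counts in the knockout and 1036 ± 118 in wild type. *cept-1*, of the enzymes of the last step, averaged 1595 ± 241 in the knockout and 1107 ± 63.9 in wild type (SD, n = 3 each). The limma adjusted p was 0.0882 for *cka-1* and 0.101 for *cept-1*. *ckb-2*, another choline kinase gene, had 160.3, 197 and 158 in the knockout, against 267, 647 and 212 in wild type, so that wild type replicate 2 alone lay far above the rest (limma adjusted p = 0.181).

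The list of the transcription factor SBP-1 and of lipid synthesis genes, which respond to low phosphatidylcholine in the worm, had 12 measured members. Of these, 10 had a log2 fold change above 0, against 51.2% of all genes, with a median of 0.37. At an unadjusted p under 0.05 there were 3 higher and 0 lower, against 10.9% of all genes upward, and groups did not overlap in 6, all higher, against 15.3%. The list's median difference from the wild-type mean on the log2 scale was 0.69, 0.28 and 0.14 in knockout replicates 1, 2 and 3, against -0.05, -0.06 and 0.13 in wild type replicates 1, 2 and 3. It was highest in knockout replicate 1, and knockout replicate 3 was level with wild type replicate 3 to within 0.01. *lpin-1*, a phosphatidate phosphatase, had 5368, 4878 and 5556 normalized counts in the knockout, against 3176, 2464 and 3904 in wild type (log2 fold change 0.75, SE 0.17, limma adjusted p = 0.0776, with 0.0057 from the authors' deposited table). *elo-2*, a fatty acid elongase, had 5600.0, 5081 and 2999 in the knockout, against 2418.5, 2450 and 2920 in wild type (0.77, SE 0.23, limma adjusted p = 0.117, with 0.0149 from the authors' deposited table). *lpin-1* was even across the knockout libraries, whereas *elo-2* in knockout replicate 3 was close to wild type. *sbp-1* itself averaged 1461 ± 254 in the knockout and 1134 ± 184 in wild type (SD, n = 3 each; limma adjusted p = 0.247), and the desaturase genes *fat-5*, *fat-6* and *fat-7* had log2 fold changes of -0.50, 0.02 and -0.38, with limma adjusted p from 0.382 to 0.964.

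The folate cycle and glycine cleavage list, which feeds single-carbon units to *mthf-1*, was mixed. Of 12 genes tested, 6 had a log2 fold change above 0, against 51.2% of all genes, with a median of -0.06. At an unadjusted p under 0.05, 1 was higher and 3 lower, against 22.6% of all genes in either direction. *dao-3*, a mitochondrial folate enzyme gene, averaged 682 ± 131 normalized counts in the knockout and 1108 ± 187 in wild type, and *folt-1*, a folate transporter gene, 178 ± 41.2 in the knockout and 102 ± 12 in wild type (SD, n = 3 each). The adjusted p of *dao-3* was 0.0176 in the authors' deposited table and 0.0938 in limma, and that of *folt-1* was 0.0311 in the authors' deposited table and 0.106 in limma. *folt-2*, another folate transporter gene and the most abundant member, had 16623, 22584 and 15261 in the knockout, against 14390.5, 7638 and 19164 in wild type, again with wild type replicate 2 the lowest of the 6.

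Transsulfuration drains homocysteine from the cycle towards cysteine. Of 4 genes, *cbs-2*, a cystathionine beta-synthase gene, was lower in the authors' deposited table (adjusted p = 0.0427), where 8.14% of all genes passed. It averaged 319 ± 82.7 normalized counts in the knockout and 506 ± 36.9 in wild type (limma adjusted p = 0.112). *cbs-1*, of the same family and more abundant, averaged 607 ± 204 in the knockout and 587 ± 80.6 in wild type (limma adjusted p = 0.998). *cth-2*, a cystathionine gamma-lyase gene and the most abundant of the 4, averaged 6955 ± 1652 in the knockout and 5290.5 ± 422 in wild type (SD, n = 3 each; limma adjusted p = 0.272). Of 23 other methyltransferase genes, 18 had a log2 fold change above 0, against 51.2% of all genes, with a median of 0.16. At an unadjusted p under 0.05, 1 was higher and 0 lower, against 22.6% of all genes in either direction. Of the 23, 0 passed in the authors' deposited table, against 8.14% of all genes in either direction. The most abundant, the protein arginine methyltransferase gene *prmt-1*, averaged 10285 ± 1187 in the knockout and 9305 ± 417 in wild type (SD, n = 3 each; limma adjusted p = 0.533).

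**Figure D5:**
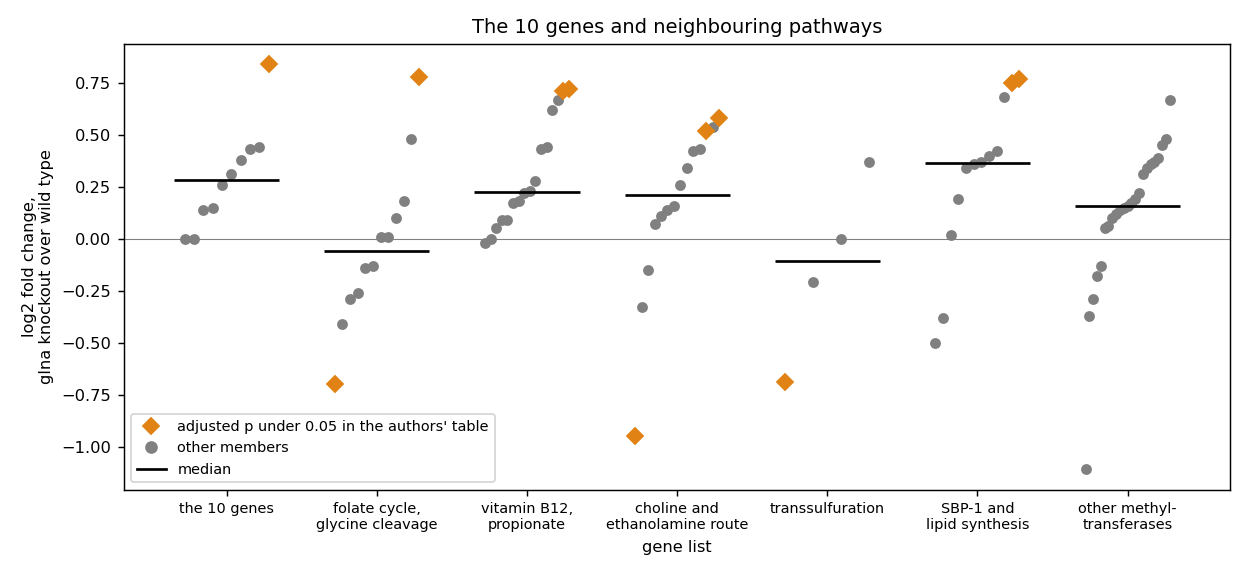
Log2 fold change of the glna knockout over wild type (vertical axis) for the 10 genes and for each gene tested in 6 neighbouring lists (horizontal axis). Orange diamonds passed an adjusted p of 0.05 in the authors' deposited table, and black bars are list medians, 0.29 for the 10 genes and -0.10 to 0.37 for the other lists.

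Calls on these neighbouring genes depended on which libraries were kept, and so did calls over all genes. With every library kept, DESeq2 on the recovered reads called 1236 genes in total. Dropping wild type replicate 2 lowered that total most, to 293, whereas dropping knockout replicate 2 raised it to 1730. Each other library, when dropped, gave a total of 628 to 1045. These totals do not tell how many of the 1236 genes stayed called. In DESeq2 on the recovered reads, 10 of the 10 genes past the authors' threshold (*nhr-114*, *alh-8*, *cka-1*, *cept-1*, *ckb-2*, *lpin-1*, *elo-2*, *dao-3*, *folt-1* and *cbs-2*) were no longer called without wild type replicate 2, with adjusted p from 0.0681 to 0.419. The log2 fold changes kept their direction in that fit: *elo-2* had 0.77, *folt-1* 0.71, *alh-8* 0.61, *lpin-1* 0.57, *nhr-114* 0.55, *cept-1* 0.50 and *cka-1* 0.48, while *dao-3* had -0.65, *cbs-2* -0.61 and *ckb-2* -0.48. Only *ckb-2*, at -1.13 with all libraries, moved by more than 1.5 times. Without knockout replicate 1, 8 were not called (0.0692 to 0.165). *alh-8* and *lpin-1* were called in each of the 5 fits that kept wild type replicate 2. The number no longer called was 6 without knockout replicate 2 (0.0546 to 0.107), 2 without knockout replicate 3 (0.0862 to 0.115), 6 without wild type replicate 1 (0.0581 to 0.15) and 6 without wild type replicate 3 (0.0518 to 0.165).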

How the data were processed

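Libraries were prepared from total RNA with a NEBNext Ultra kit, according to the labels' protocols. They say nothing of strand. The submitters' processing notes name the build WBcel235, the aligner HISAT2 2.0.5 and the counter featureCounts 1.5.0-p3, and they also name DESeq2 1.20.0, StringTie 1.3.3b and CASAVA 1.8, all without an order of use. Per the file headers and values, the deposited signal is a normalized count, with 1 scaling factor for each library. Its smallest increment per library was used to recover reads, which came out whole for 100% of values (tolerance 0.01 read). The deposited log2 fold changes, p-values and adjusted p-values are the authors' own, knockout over wild type. Coordinates and lengths are those deposited. For *sams-1*, *sams-3* and *pmt-1* the deposited span ends short of the Ensembl release 115 gene, and for *sams-3* (1029 bases) it is shorter than the deposited length (2005 bases).

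Symbols came from Ensembl and RefSeq annotations, which held 21078 of 21507 IDs. Annotated exons of *sams-3* overlap C06E7.4, and those of *mthf-1* overlap C06A8.6, both on the opposite strand, so reads cannot be told apart there. C06E7.4 had 318 to 664 normalized counts in the knockout and 560 to 744 in wild type, and C06A8.6 had 686 to 1034 in the knockout and 1053 to 1222 in wild type.

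Values were transformed to log2(normalized count + 1) and compared with limma 3.58.1 (R 4.3.3), using its moderated two-sided test with a mean-variance trend and Benjamini-Hochberg adjustment. Fold changes on this scale understate the change of low genes. Alternatives were edgeR 4.0.16 and DESeq2 1.42.0 on recovered reads, other scalings, filters and pseudocounts, a replicate block and leaving out each library. DESeq2 without each library was added after seeing the data. The fits were tested on simulated counts. All 10 genes, each neighbouring pathway list's members past an adjusted p of 0.05 in limma or the authors' table, its most abundant member, and the 5 genes most like *sams-1* and *pmt-2* were named by rule. The *fat* genes, *sbp-1*, *cbs-1* and the marker genes past the authors' threshold were named after their values were seen. The 10 genes and the lists were chosen with earlier results of these data known. A planned promoter motif search was not run. Plots and summaries used matplotlib 3.10.9, pandas 2.3.3 and Python 3.11.15.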

Additional observations from a re-analysis of the deposited data

How the results depend on the processing

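Limma called 54 genes in all (32 higher and 22 lower in the knockout). The count was 19 with a pseudocount of 0.1 or a filter at a mean of 50, 164 without a filter, 320 with library weights, 9 in edgeR under TMM, 25 in edgeR under median-of-ratios scaling, and 1236 in DESeq2 on recovered reads and in the authors' deposited table. It was 0 to 247 in limma without 1 library and 293 to 1730 in DESeq2 without 1 library (733, 1730 and 1045 without knockout replicates 1, 2 and 3, and 755, 293 and 628 without wild type replicates 1, 2 and 3). With a replicate block it was 688, and 0 of the 10 genes were called. Same-numbered libraries did not all deviate together, with correlations of 0.197, -0.025 and 0.288 for numbers 1, 2 and 3. Those for numbers 1 and 3 were above every correlation between differently numbered libraries, -0.365 to 0.134. The numbers were not taken to pair samples in the main test, and whether they do cannot be told from these values. Of the 10 genes, 1 was called by DESeq2 and in the authors' deposited table, 0 in limma without any 1 library and 0 to 2 in DESeq2 without 1 library. Values near 0 turned sign: *sams-4* was -0.04 after quantile normalization, -0.01 with library weights and in edgeR with TMM factors, -0.0049 in edgeR with median-of-ratios factors, -0.0048 in DESeq2 and in the authors' deposited table, -0.06 in DESeq2 without knockout replicate 3, -0.0026 in the DESeq2 fit without wild type replicate 1, and -0.11 to 0.10 over the fits without 1 library. *ahcy-1* was -0.11 after quantile normalization, -0.12 with library weights, -0.10, -0.03 and -0.04 in DESeq2 without knockout replicate 1, knockout replicate 2 and wild type replicate 2, and -0.12 to 0.18 over the fits without 1 library. Without 1 library *sams-5* was -0.03 to 0.54 and *mtrr-1* -0.06 to 0.27. The cause was not tested.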
